A study of Mus musculus with 12 samples.

Results

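Axon guidance ligands and receptors were followed in PT-22 cells, a mouse kidney line labelled as proximal tubule, after 4-hydroxytamoxifen. The set is every gene whose symbol belongs to the semaphorin (Sema3 to Sema7), plexin, neuropilin, ephrin, Eph receptor, Slit, Robo or netrin families, 64 of the 55491 genes in the deposited tables. Membership came from symbols alone, but the set was chosen with earlier results of these data known. Of the 64 members, 48 passed the filter on low counts and were tested among 13513 genes.

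All cells carried the genotype Pax2-/-,Pax8fl/fl,Rosa-CreERT2: loss of Pax2, a Pax8 gene that Cre can delete, and a Cre that 4-hydroxytamoxifen switches on. The polyA RNA of untreated control cells was sequenced beside that of cells taken 2, 6 and 12 days after treatment with 1 µM of the drug, with 3 libraries (A, B and C) in each of the 4 groups. The stated aim was to deplete PAX8, a transcription factor of kidney epithelium. PT-22 is a single cultured line, and no label says whether libraries A, B and C were grown as separate cultures, so the p-values reflect only how far these libraries spread, which may be technical. There was no vehicle-treated group and no untreated group at a later day, so drug, Cre activity, time in culture and PAX8 depletion cannot be told apart.

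Guidance cues were named for steering growing axons, but epithelia use the same proteins to sort cells, set boundaries and shape tubules. Semaphorins signal through plexins, and the secreted class 3 semaphorins mostly need a neuropilin as the binding partner. Ephrins and Eph receptors are both anchored in membranes and signal between touching cells, while Slit proteins act on Robo receptors and netrins on DCC and UNC5 receptors. In the developing kidney, Slit2 and Robo2 are known for limiting the site where the ureteric bud forms.

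Library totals lay between 4326667 counts (day 2 B) and 11654959 counts (day 2 C). The Pax8 transcript was not lower after treatment: it averaged 225 ± 3.46 CPM in control, 402 ± 51.0 CPM on day 2, 256 ± 10.9 CPM on day 6 and 242 ± 10.5 CPM on day 12 (SD, n = 3 each). It was called higher than control on days 2 and 6 (edgeR adjusted p = 5.59e-12 and 0.0181) but not on day 12 (edgeR adjusted p = 0.189). The labels do not say which exons Cre removes, so the gene counts are no test of the deletion. Reads were also counted to Pax2, whose loss allele the labels do not describe: it averaged 46.8 ± 5.78 CPM in control, 71.6 ± 11.69 CPM on day 2, 79.0 ± 6.45 CPM on day 6 and 50.5 ± 3.71 CPM on day 12, and was called higher than control on days 2 and 6 (edgeR adjusted p = 0.000153 and 8.78e-07) but not on day 12 (edgeR adjusted p = 0.427). Of 16 proximal tubule markers, 2 (Slc34a1 and Slc5a2, the transporters that define the mature segment) were at 0 in all 12 libraries. The summed level of the 16 markers ran from 2438 to 2586 CPM in control, from 1470 to 1582 CPM on day 2, from 1332 to 1581 CPM on day 6 and from 787 to 997 CPM on day 12. Of the 10 that were tested, 1 was higher and 8 lower than control on each day. The 1 was Aqp1, the water channel, with 659 ± 101 CPM on day 12, against 173 ± 3.37 CPM in control, and the falls included the cadherins Cdh16 (37.9 ± 3.67 CPM on day 12, against 1103 ± 53.5 CPM in control) and Cdh6 (101 ± 0.597 CPM, against 729.6 ± 23.1 CPM).

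Levels are given as CPM, counts in each 1000000 scaled by edgeR's TMM factors, and as TPM, which also divides by transcript length, wherever different genes are compared. Differences are log2 fold changes with a standard error (SE) derived from the test statistic. This SE understates the uncertainty where a group has few counts. A gene is called where its adjusted p from edgeR's quasi-likelihood test, by Benjamini-Hochberg over the 13513 genes, is under 0.05. On day 2, 15 of the 48 tested members were higher than in control and 12 were lower, beside 10.3% of all tested genes called higher and 10.9% called lower. On day 6, 24 were higher and 14 lower than in control, beside 26.7% and 27.6% of all genes. On day 12, 25 were higher and 14 lower than in control, beside 26.1% and 26.6% of all genes. These 3 comparisons use the same 3 control libraries.

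Changes of at least 2-fold were counted apart. On day 2, 4 members were higher and 4 lower than control by that much, beside 1.84% and 2.47% of all tested genes. On day 6, 11 were higher and 7 lower, beside 7.24% and 6.02%, and on day 12, 10 were higher and 7 lower, beside 7.73% and 5.98%. The median absolute log2 fold change of the 48 members was 0.28 on day 2, 0.63 on day 6 and 0.61 on day 12, against 0.15, 0.31 and 0.30 over all tested genes. Signed medians lay near 0 for both: 0.16 on day 6 and 0.17 on day 12 for the members, against -0.006 and -0.0028 for all genes. An F-test across the 4 groups called 44 of the 48 members, beside 65.1% of all genes.

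**Figure D1:**
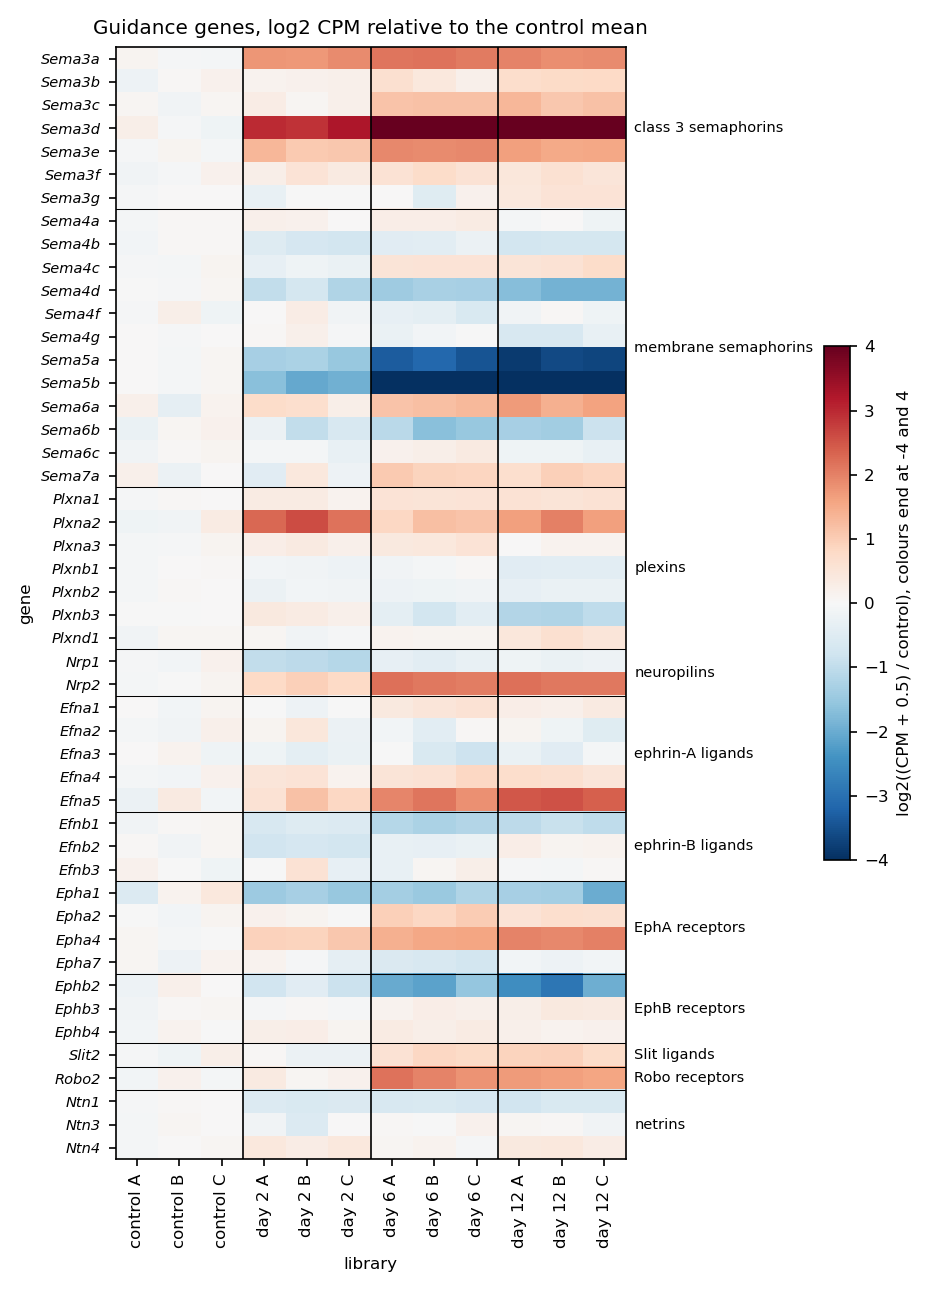
Level of each of the 48 tested members (down the page, by family) in each of the 12 libraries (across). Values are log2 of CPM with a small constant added, minus the control mean of the same value. The added constant shrinks changes of genes near the floor, and the colours are cut off at both ends of the scale. All 7 class 3 semaphorins are red on day 12 and Sema5a and Sema5b are dark blue, while ephrins, plexins and Eph receptors hold both colours.

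Markers of other cell types moved with time as well. Of 12 neuron markers, 6 (Dcx, Elavl4, Gap43, Nefl, Nefm and Stmn2) were at 0 in all libraries, and the summed level was 23.8 to 26.4 CPM in control, 30.1 to 33.7 CPM on day 2, 48.8 to 61.1 CPM on day 6 and 87.1 to 88.8 CPM on day 12. Only 2 of the 12 were tested, and they went opposite ways on each day: the vesicle gene Syt1 was higher (79.0 ± 2.56 CPM on day 12, against 6.67 ± 1.46 CPM in control) and the tubulin Tubb3, most of the control sum, was lower (8.92 ± 1.58 CPM on day 12, against 17.9 ± 0.846 CPM in control). Of 11 fibroblast and smooth muscle markers, Col3a1 and Pdgfra were at 0, and the sum was 5.53 to 6.17 CPM in control, 14.3 to 21.05 CPM on day 2, 63.5 to 85.2 CPM on day 6 and 309 to 357 CPM on day 12, mostly from Acta2. Of 10 endothelial markers, Cdh5 and Kdr were at 0, and the sum was 37.0 to 38.5 CPM in control, 50.1 to 53.7 CPM on day 2, 44.2 to 46.9 CPM on day 6 and 51.7 to 52.7 CPM on day 12. Other sums were lower on day 12 than in control. The leukocyte sum was 16.3 to 19.3 CPM, against 23.3 to 27.0 CPM in control. Its markers did not fall together: of the 3 tested, 2 were higher and 1 lower than control on day 12. Csf1r, most of the control sum, had a lower mean on day 12, while Cd68 and Lyz2 had higher means. The podocyte sum was 218 to 235 CPM, against 261 to 271 CPM. The collecting duct sum was 0.224 to 0.817 CPM, against 3.11 to 4.81 CPM. The Schwann and glial sum was higher, with 13.8 to 16.8 CPM, against 6.92 to 8.88 CPM. The loop of Henle and distal tubule sum stayed near 0. The part of these marker genes in the guidance results was not tested.

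Among the secreted class 3 semaphorins all calls against control were rises. Counts by family, here and below, stand beside the shares of all tested genes. These were 10.3% higher and 10.9% lower than control on day 2, 26.7% and 27.6% on day 6, and 26.1% and 26.6% on day 12. A count near those shares says nothing of its family. Of the 7 class 3 members, all tested, 5 rose on day 2, 6 on day 6 and 7 on day 12. Of them 4, Sema3d, Sema3a, Sema3e and Sema3c, lie on the same strand of chromosome 5 within 5.35 Mb (GRCm38, chr5:12383385-17730268, gene positions from GENCODE M21). This interval holds 77 annotated genes, 21 of them protein-coding. Each of the 4 was higher than control on days 6 and 12. The windows at their RefSeq starts differ in base composition. Whether position or base composition bears on the rises was not tested. The windows (GRCm38.p6, + strand, 250 bases before to 50 after the start) are shown with CG dinucleotides in capitals.
Sema3d, chr5:12382916-12383215: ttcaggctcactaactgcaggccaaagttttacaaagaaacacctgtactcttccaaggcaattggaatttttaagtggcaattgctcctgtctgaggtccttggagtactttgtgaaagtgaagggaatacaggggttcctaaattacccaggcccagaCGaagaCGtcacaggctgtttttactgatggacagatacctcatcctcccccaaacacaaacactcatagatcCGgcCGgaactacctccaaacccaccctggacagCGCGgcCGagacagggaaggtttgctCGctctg
Sema3a, chr5:13396534-13396833: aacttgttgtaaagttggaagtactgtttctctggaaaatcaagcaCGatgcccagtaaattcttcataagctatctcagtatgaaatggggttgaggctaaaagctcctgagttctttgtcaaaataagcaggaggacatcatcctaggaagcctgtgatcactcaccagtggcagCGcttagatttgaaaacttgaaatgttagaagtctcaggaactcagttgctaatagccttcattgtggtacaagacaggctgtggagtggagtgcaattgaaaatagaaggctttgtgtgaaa
Sema3e, chr5:14025026-14025325: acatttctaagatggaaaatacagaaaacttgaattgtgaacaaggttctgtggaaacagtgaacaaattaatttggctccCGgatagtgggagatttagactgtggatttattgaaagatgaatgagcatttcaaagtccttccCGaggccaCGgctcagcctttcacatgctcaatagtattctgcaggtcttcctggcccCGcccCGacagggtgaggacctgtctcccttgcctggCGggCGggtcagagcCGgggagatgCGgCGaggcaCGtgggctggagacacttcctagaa
Sema3c, chr5:17574566-17574865: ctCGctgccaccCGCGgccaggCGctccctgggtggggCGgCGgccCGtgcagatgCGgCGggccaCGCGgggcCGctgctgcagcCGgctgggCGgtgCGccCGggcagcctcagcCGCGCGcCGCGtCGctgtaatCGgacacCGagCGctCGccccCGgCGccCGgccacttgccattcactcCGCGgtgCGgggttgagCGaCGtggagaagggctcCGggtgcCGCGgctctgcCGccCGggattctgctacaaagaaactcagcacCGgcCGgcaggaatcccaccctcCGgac

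The Sema3a window held 2 CG dinucleotides and 41.3% G or C, the Sema3d window 8 and 49.7%, the Sema3e window 11 and 50.7%, and the Sema3c window 42 and 75.7%. Over the 72 windows of the 56 members with an entry, the medians were 18 CG dinucleotides and 64.0% G or C, against 7 and 52.7% over all 32851 windows. The RefSeq starts of Sema3a and Sema3c lie inside the GENCODE spans of these genes and that of Sema3d lies before its span. Those 3 windows are therefore not at the first GENCODE base. The windows of Sema3c and Sema3d lie near the starts of their spans. The Sema3a window (chr5:13396534-13396833) lies far inside its span (chr5:13125414-13602565), so its base composition may not be that at the gene's first start. Motif letters were searched on both strands in every window: GTCACGC, a core of the paired-domain sites of PAX2, PAX5 and PAX8, TGANTCA of AP-1 and CATTCC of TEAD factors. No match to these motifs stood in the 4 chromosome 5 windows. Among members GTCACGC was found in Efna3 alone, beside 2.09% of all windows, TGANTCA in Sema4c, Sema4d and Sema6b, beside 7.81%, and CATTCC in 9 genes (Efnb2, Epha1, Epha2, Epha3, Ntn3, Plxnb1, Plxnd1, Robo2 and Sema4a), beside 14.7%.

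Sema3d, a secreted repellent that acts through neuropilin 1 (ENSMUSG00000040254, chr5:12383385-12588948), had the largest fold rise of the 48 members against control at each day. Its level was 1.27, 0.969 and 0.836 CPM in control libraries A, B and C, 11.4, 10.8 and 13.8 CPM on day 2, 53.2, 63.1 and 51.2 CPM on day 6, and 67.6, 65.9 and 64.2 CPM on day 12. No treated library overlapped a control library, and the control values rest on 11, 7 and 8 counts. Sema3d rose by 3.58 ± 0.22 (SE) on the log2 scale on day 2 (edgeR adjusted p = 3.78e-15), by 5.76 ± 0.16 on day 6 and by 5.99 ± 0.16 on day 12, where the edgeR adjusted p was 3.63e-26. With so few control counts, these SE understate the uncertainty of the size of the rise.

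Sema3a, the best known growth cone repellent of the class (ENSMUSG00000028883, chr5:13125414-13602565), was 34.8, 30.9 and 30.6 CPM in control, 109, 108 and 119.6 CPM on day 2, 144, 145 and 138 CPM on day 6 and 129, 117 and 121 CPM on day 12. Every treated library stood above every control library, and day 6 stood above days 2 and 12. Sema3a rose by 1.82 ± 0.07 on day 2, 2.15 ± 0.07 on day 6 and 1.93 ± 0.07 on day 12 (edgeR adjusted p = 4.06e-20, 2.01e-23 and 4.8e-22). In bulk RNA, a change in the number of cells that make a transcript and a change in the amount per cell cannot be told apart, here and below.

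Sema3e, which binds plexin D1 without a neuropilin (ENSMUSG00000063531, chr5:14025276-14256689), was 29.0, 32.4 and 27.8 CPM in control, 74.8, 61.7 and 63.5 CPM on day 2, 113, 111 and 114 CPM on day 6 and 94.2, 86.6 and 86.9 CPM on day 12. The 4 groups did not overlap, with day 6 on top. The rise was 1.18 ± 0.08 on day 2, 1.93 ± 0.08 on day 6 and 1.59 ± 0.08 on day 12 (edgeR adjusted p = 1.95e-13, 8.18e-21 and 2.41e-18). Between day 12 and day 6, Sema3e fell by 0.34 ± 0.07 (edgeR adjusted p = 0.00039).

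Sema3c, known for guiding outflow tract and vessel growth (ENSMUSG00000028780, chr5:17574281-17730268), was the most abundant semaphorin in every group by TPM. It was 346, 302 and 347 CPM in control, 408, 349.6 and 382 CPM on day 2, 732, 754 and 744 CPM on day 6 and 825, 697 and 750.2 CPM on day 12. Day 2 libraries stood just above the control libraries, and those of days 6 and 12 stood far above both and overlapped each other. Sema3c rose by 1.16 ± 0.06 on day 6 and 1.19 ± 0.06 on day 12 (edgeR adjusted p = 3.1e-16 and 1.42e-16). The day 2 difference of 0.20 ± 0.06 passed (edgeR adjusted p = 0.0262), but not without control B (adjusted p = 0.18), without day 2 A (adjusted p = 0.184), with the libraries of those 2 groups alone (adjusted p = 0.0595) or with limma on TPM (adjusted p = 0.229 with a pseudocount of 1).

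Between Sema3d and Sema3c, 6 genes were tested in all. The 2 that are no members are Gm43719, an unclassified transcript that starts 1470 bases after the end of Sema3a on the same strand, and Cacna2d1, a calcium channel subunit. Gm43719 was higher on each day (log2 2.49, 2.12 and 2.37, edgeR adjusted p = 9.94e-07, 6.79e-06 and 5.97e-07), and how its reads were kept apart from those of Sema3a is not given. Cacna2d1, which lies between Sema3e and Sema3c, did not pass at any day: its log2 difference was -0.07 on day 2, -0.01 on day 6 and 0.30 on day 12 (edgeR adjusted p = 0.802, 0.974 and 0.0737).

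The other class 3 members changed less on days 6 and 12. Sema3f, a repellent that acts through neuropilin 2, averaged 63.1 ± 7.31 CPM on day 2, 75.0 ± 4.94 CPM on day 6 and 68.9 ± 4.18 CPM on day 12, against 48.3 ± 5.75 CPM in control, and rose on each day (edgeR adjusted p = 0.00221, 1.39e-07 and 6.39e-06). Sema3b, its neighbour on chromosome 9 and a p53 target in human cells, rose by 0.45 ± 0.11 on day 6 and 0.76 ± 0.10 on day 12 (edgeR adjusted p = 0.000597 and 1.47e-07). Sema3g, an endothelial semaphorin, passed on day 12 with 12.5 ± 0.734 CPM, against 8.68 ± 0.239 CPM in control (edgeR adjusted p = 0.00466).

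Membrane-anchored semaphorins moved both ways. Of 13 members, 12 were tested. On day 2, 1 rose and 5 fell, on day 6, 5 rose and 6 fell, and on day 12, 3 rose and 6 fell. The rises on days 2 and 12 were close to the 10.3% and 26.1% of all tested genes called higher. The day 6 rise of Sema6c did not pass without control A (adjusted p = 0.18) or with DESeq2 (adjusted p = 0.0768). With limma on log2(TPM + 1), the day 6 rises of Sema6c and Sema4a did not pass (adjusted p = 0.0979 and 0.0553). The day 6 fall of Sema4f did not pass without control B (adjusted p = 0.101) or day 6 C (adjusted p = 0.0769). The 2 class 5 semaphorins, which carry thrombospondin repeats and can attract or repel axons, had the largest falls of the family on each day.

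Sema5a (ENSMUSG00000022231, chr15:32244810-32696341) was 464, 434 and 481 CPM in control, 181, 191 and 162 CPM on day 2, 45.1, 51.5 and 41.5 CPM on day 6, and 32.1, 37.1 and 35.9 CPM on day 12. The groups did not overlap, and each later group lay below the one before it. Sema5a fell, with log2 differences from control of -1.38 ± 0.07 on day 2, -3.32 ± 0.07 on day 6 and -3.71 ± 0.08 on day 12 (edgeR adjusted p = 2.76e-17, 5.62e-27 and 5.96e-28). Its paralog Sema5b (ENSMUSG00000052133, chr16:35541145-35664732) was 18.9, 17.7 and 19.96 CPM in control, 5.58, 4.21 and 4.61 CPM on day 2, 0.398, 0.332 and 0.133 CPM on day 6 and 0.233, 0.112 and 0.103 CPM on day 12. These levels stand for 164, 128 and 191 counts in control, 41, 18 and 54 on day 2, 4, 3 and 1 on day 6 and 2, 1 and 1 on day 12, so the last 2 groups are near the limit of counting. Sema5b fell, with log2 differences from control of -1.96 ± 0.17 on day 2, -5.91 ± 0.27 on day 6 and -6.87 ± 0.30 on day 12 (edgeR adjusted p = 3.57e-11, 2.45e-19 and 6.39e-20). With so few counts on days 6 and 12, the SE of those days understate the uncertainty of the size of the fall.

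Sema4d, the ligand of plexin B1 that is shed from the surface of lymphocytes and epithelia (ENSMUSG00000021451, chr13:51685529-51793747), was 144, 141 and 156 CPM in control, 74.0, 89.6 and 63.9 CPM on day 2, 54.6, 59.8 and 57.9 CPM on day 6 and 45.2, 39.2 and 39.1 CPM on day 12. No 2 groups overlapped. Sema4d fell, with log2 differences from control of -0.99 ± 0.08 on day 2, -1.36 ± 0.08 on day 6 and -1.84 ± 0.09 on day 12 (edgeR adjusted p = 2.17e-10, 5.22e-14 and 9.15e-17). Sema4b also fell on each day (log2 -0.64, -0.37 and -0.72, edgeR adjusted p = 3.7e-08, 6.25e-05 and 4.28e-10).

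Sema6a, a transmembrane ligand of plexin A2 and plexin A4, moved the other way. Its level was 13.9, 9.41 and 13.5 CPM in control, 20.4, 19.4 and 14.2 CPM on day 2, 27.3, 28.7 and 30.5 CPM on day 6, and 40.5, 33.6 and 37.6 CPM on day 12. Day 2 C lay close to control A and C, and the other groups stood apart. Sema6a rose by 1.21 ± 0.13 on day 6 and 1.58 ± 0.13 on day 12 (edgeR adjusted p = 4.28e-09 and 6.83e-12). On day 2 it passed with 0.49 ± 0.15 (edgeR adjusted p = 0.0139), but not without control B (adjusted p = 0.103), without day 2 A (adjusted p = 0.13) or with limma on log2(TPM + 1) (adjusted p = 0.169).

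Sema7a, which is held to the membrane by a lipid anchor and signals through plexin C1 and integrins (ENSMUSG00000038264, chr9:57940112-57962865), was 3.57, 2.49 and 3.03 CPM in control, 2.04, 4.21 and 2.56 CPM on day 2, 6.66, 5.97 and 5.87 CPM on day 6 and 5.13, 6.29 and 5.85 CPM on day 12. Control and day 2 libraries overlapped, and all libraries of days 6 and 12 lay above them. Sema7a rose by 1.01 ± 0.23 on day 6 and 0.91 ± 0.23 on day 12 (edgeR adjusted p = 0.000281 and 0.00101). Its receptor gene Plxnc1 had 0 to 4 counts a library and was not tested.

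**Figure D2:**
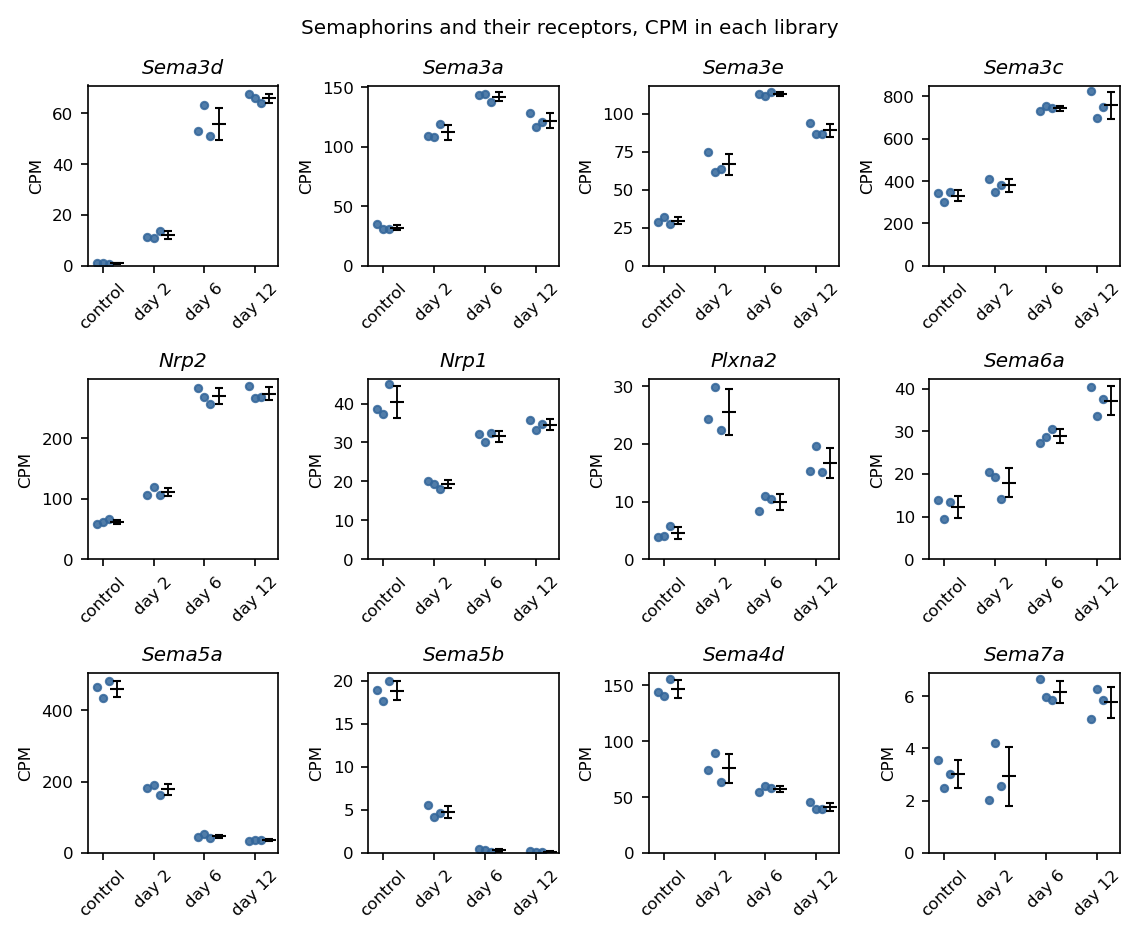
CPM (y axis, from 0) of 12 semaphorin, neuropilin and plexin genes in each library (points) by group (x axis), with the mean and SD of 3 libraries (bar and whiskers). Sema3d and Sema6a are higher and Sema5a lower on days 6 and 12 than in control, whereas Plxna2 is highest and Nrp1 lowest on day 2.

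Secreted semaphorins held a larger share of the semaphorin transcripts on each day after treatment, and the class 5 genes a smaller one. Summed over the 20 semaphorin genes, TPM was 425 ± 32.0 in control, 403 ± 15.7 on day 2, 602 ± 16.6 on day 6 and 547 ± 6.89 on day 12. Class 3 genes held 37.8% ± 0.638 of this sum in control, 55.2% ± 2.53 on day 2, 68.2% ± 1.69 on day 6 and 72.1% ± 1.68 on day 12. The libraries of these 4 groups did not overlap, with 37.2 to 38.4% in control, 52.7 to 57.7% on day 2, 66.5 to 69.9% on day 6 and 70.8 to 74.0% on day 12.

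Sema5a and Sema5b together held 17.1% ± 0.356 of semaphorin TPM in control, 6.89% ± 0.577 on day 2, 1.19% ± 0.133 on day 6 and 0.959% ± 0.1099 on day 12. The Sema4 genes held 39.2% ± 0.577 in control, 32.2% ± 2.34 on day 2, 24.2% ± 1.14 on day 6 and 21.1% ± 1.38 on day 12. Sema3c alone held 41.4% ± 2.15 on day 12, against 22.4% ± 0.670 in control. The shares were not tested, and since they sum to the whole, a higher share of some genes sets a lower share of others.

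**Figure D3:**
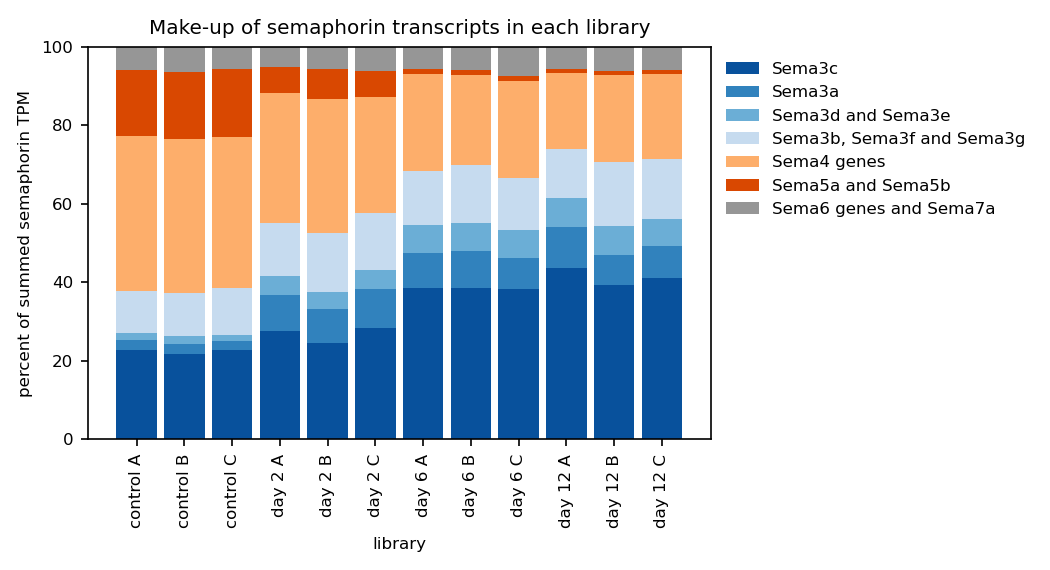
Percent of the summed semaphorin TPM (y axis) held by groups of semaphorin genes in each library (x axis). Class 3 genes (blue) hold 70.8 to 74.0% in the day 12 libraries, against 37.2 to 38.4% in the control libraries, and Sema5a and Sema5b (dark orange) hold 0.845 to 1.06% on day 12, against 16.7 to 17.5% in control.

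Semaphorin receptors did not move as 1 group. Of the 9 plexins, 7 were tested, and 3 rose and 1 fell on day 2, 3 rose and 1 fell on day 6, and 3 rose and 3 fell on day 12. The day 2 fall was Plxnb2, which did not pass without control B (adjusted p = 0.078), control C (adjusted p = 0.0841) or day 2 A (adjusted p = 0.121), and the day 6 fall, Plxnb2 again, was not called by limma on log2(TPM + 1) (adjusted p = 0.903). Of the day 2 rises, Plxna3 did not pass without control A (adjusted p = 0.0766), control B (adjusted p = 0.0634) or day 2 B (adjusted p = 0.0544). The 2 neuropilins moved in opposite directions on each day. Plxnb2 was the most abundant plexin by TPM in each group, with 239.6 ± 14.1 TPM in control, 215 ± 8.34 TPM on day 2, 238 ± 7.58 TPM on day 6 and 209.9 ± 5.20 TPM on day 12.

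Nrp2, the neuropilin that binds Sema3f and Sema3c (ENSMUSG00000025969, chr1:62703285-62818695), was 57.9, 60.9 and 66.0 CPM in control, 107, 119 and 107 CPM on day 2, 283, 268 and 256 CPM on day 6 and 286, 266 and 268 CPM on day 12. Control and day 2 each stood apart, and days 6 and 12 overlapped. Nrp2 rose by 0.84 ± 0.07 on day 2, 2.12 ± 0.07 on day 6 and 2.15 ± 0.07 on day 12 (edgeR adjusted p = 5.81e-12, 1.99e-24 and 1.11e-24). A tested transcript, Gm37121, overlaps it on the same strand.

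Nrp1, the neuropilin of Sema3a and also a receptor for VEGF (ENSMUSG00000025810, chr8:128358604-128503363), was 38.7, 37.4 and 44.9 CPM in control, 20.1, 19.4 and 18.1 CPM on day 2, 32.1, 30.1 and 32.5 CPM on day 6 and 35.8, 33.1 and 34.8 CPM on day 12. Its lowest group was day 2, and the later groups stood between day 2 and control. Nrp1 fell, with log2 differences from control of -1.09 ± 0.10 on day 2 and -0.36 ± 0.09 on day 6 (edgeR adjusted p = 5.43e-11 and 0.000775), and was then higher on day 6 than on day 2 by 0.73 ± 0.10 (edgeR adjusted p = 2.72e-07). The day 12 difference of -0.23 ± 0.09 passed (edgeR adjusted p = 0.0272), but not without control C (adjusted p = 0.236), day 12 B (adjusted p = 0.103) or day 12 C (adjusted p = 0.0553), nor with DESeq2 (adjusted p = 0.0763) or with all genes of at least 1 count (adjusted p = 0.0591). With limma on log2(TPM + 1), neither the day 6 nor the day 12 difference passed (adjusted p = 0.0682 and 0.22). By TPM, Nrp2 had 67.8 ± 2.12 and Nrp1 16.0 ± 0.413 on day 12, while in control they had 14.7 ± 1.46 and 18.2 ± 2.47.

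Plxna2, a receptor of Sema6a and with neuropilins of class 3 semaphorins (ENSMUSG00000026640, chr1:194618218-194816869), was 3.92, 4.01 and 5.85 CPM in control, 24.3, 29.9 and 22.4 CPM on day 2, 8.45, 11.1 and 10.5 CPM on day 6 and 15.3, 19.6 and 15.1 CPM on day 12. The 4 groups did not overlap, and their order from low to high was control, day 6, day 12 and day 2. Plxna2 rose by 2.42 ± 0.17 on day 2, 1.10 ± 0.19 on day 6 and 1.84 ± 0.17 on day 12 (edgeR adjusted p = 1.04e-13, 6.27e-06 and 3.86e-11). It fell by 1.33 ± 0.15 between day 6 and day 2 (edgeR adjusted p = 4.83e-09) and was higher on day 12 than on day 6 by 0.74 ± 0.15 (edgeR adjusted p = 0.00042).

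Other plexins changed by less than 2-fold, apart from Plxnb3. Plxna1 averaged 173 ± 11.4 CPM on day 2, 209.5 ± 2.35 CPM on day 6 and 212 ± 3.25 CPM on day 12, against 144 ± 4.63 CPM in control, and passed on each day (edgeR adjusted p = 0.0009, 6.17e-10 and 2.92e-10). Plxnd1, the receptor of Sema3e, rose on day 12 with 90.3 ± 6.33 CPM, against 62.6 ± 5.55 CPM in control (edgeR adjusted p = 2.34e-07). Plxnb1, the receptor of Sema4d, fell on day 12 with 118 ± 2.23 CPM, against 159.6 ± 8.24 CPM in control (edgeR adjusted p = 1.66e-07). Plxnb3, a receptor of Sema5a, had low counts and fell by 1.63 ± 0.39 on day 12 (edgeR adjusted p = 0.000643). With limma on log2(TPM + 1), the calls of Plxna1 on day 2 (adjusted p = 0.5) and of Plxnd1 and Plxnb1 on day 12 (adjusted p = 0.0711 and 0.252) did not pass. Tested antisense transcripts overlap Plxna1 and Plxnb1, and with the strand setting not given their values are uncertain.

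Ephrin ligands of the A and B classes were counted apart. Of the 5 glycolipid-anchored ephrin-A genes, 2 rose on day 2, 3 on day 6 and 3 on day 12, and the others did not pass. On day 2 the 2 were Efna5 and Efna4, and Efna4 did not pass without control A (adjusted p = 0.0836), control B (adjusted p = 0.0938), day 2 A (adjusted p = 0.133) or day 2 B (adjusted p = 0.0794). Of the 3 transmembrane ephrin-B genes, 2 fell on day 2, 2 fell on day 6, and on day 12 1 rose and 1 fell. Whether the classes differ was not tested.

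Efna5, a ligand used in retinal and cortical mapping (ENSMUSG00000048915, chr17:62604184-62881317), was 4.61, 7.19 and 5.12 CPM in control, 8.43, 13.1 and 10.2 CPM on day 2, 22.8, 26.0 and 20.8 CPM on day 6 and 33.5, 34.9 and 31.4 CPM on day 12. The groups did not overlap and stood in order of time. Efna5 rose by 0.88 ± 0.18 on day 2, 2.06 ± 0.15 on day 6 and 2.58 ± 0.15 on day 12 (edgeR adjusted p = 0.000211, 9.23e-14 and 6.52e-17). By TPM, Efna1 was still the highest ephrin-A, with 35.9 ± 2.19 TPM on day 12 beside 34.4 ± 2.68 for Efna4 and 14.9 ± 2.03 for Efna5, and the first 2 differ by less than their SD. Efna1 and Efna4, which lie close together on chromosome 3, rose less, Efna4 by 0.61 ± 0.11 and Efna1 by 0.27 ± 0.10 on day 12 (edgeR adjusted p = 2.85e-05 and 0.0175). The Efna1 call did not pass without control B (adjusted p = 0.0858) or day 12 C (adjusted p = 0.0935). A tested antisense transcript overlaps Efna4.

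Efnb1, an X-linked ligand of EphB receptors known for sorting cells at tissue boundaries (ENSMUSG00000031217, chrX:99136130-99148991), was 71.2, 80.5 and 83.5 CPM in control, 50.5, 54.0 and 52.9 CPM on day 2, 35.0, 32.6 and 34.4 CPM on day 6 and 37.3, 41.9 and 38.6 CPM on day 12. All treated libraries lay below all control libraries. Efnb1 fell, with log2 differences from control of -0.58 ± 0.08 on day 2, -1.21 ± 0.08 on day 6 and -1.0 ± 0.08 on day 12 (edgeR adjusted p = 2.74e-07, 4.04e-15 and 3.08e-13). Its homologue Efnb2, a marker of arteries and a partner of EphB4, averaged 138 ± 11.3 CPM in control, 82.9 ± 2.92 CPM on day 2, 112 ± 2.26 CPM on day 6 and 156 ± 10.03 CPM on day 12. Efnb2 fell, with log2 differences from control of -0.74 ± 0.07 on day 2 and -0.30 ± 0.06 on day 6 (edgeR adjusted p = 6.26e-11 and 0.00014). Its day 12 difference of 0.17 ± 0.06 passed (edgeR adjusted p = 0.0232), but not without control B (adjusted p = 0.181) or day 12 A (adjusted p = 0.171). With limma on log2(TPM + 1), neither the day 6 nor the day 12 difference of Efnb2 passed (adjusted p = 0.246 and 0.0785). The tested transcript E230020D15Rik overlaps it on the same strand.

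Eph receptors of both classes held rises and falls. Of 9 EphA genes 4 were tested, with 1 higher and 1 lower on day 2, 2 and 2 on day 6, and 2 and 1 on day 12. The day 6 falls were Epha1, at 0.912 CPM, and Epha7, which limma on log2(TPM + 1) did not call (adjusted p = 0.193). Of 5 EphB genes 3 were tested, with 1 higher and 1 lower on day 2, and 2 higher and 1 lower on days 6 and 12. The day 2 rise was Ephb4, which did not pass without control A (adjusted p = 0.13), control C (adjusted p = 0.0816), day 2 A (adjusted p = 0.0958) or day 2 B (adjusted p = 0.056). On day 6, Ephb3 did not pass without control A (adjusted p = 0.162), day 6 B (adjusted p = 0.0921) or day 6 C (adjusted p = 0.0504).

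Epha4, which binds ligands of both ephrin classes (ENSMUSG00000026235, chr1:77367185-77515088), was 18.3, 16.3 and 16.8 CPM in control, 33.1, 32.0 and 36.7 CPM on day 2, 46.9, 51.4 and 52.0 CPM on day 6 and 69.5, 66.6 and 70.6 CPM on day 12. The groups stood in order of time with no overlap. Epha4 rose by 1.00 ± 0.10 on day 2, 1.54 ± 0.09 on day 6 and 2.00 ± 0.09 on day 12 (edgeR adjusted p = 2.93e-10, 1.79e-16 and 3.83e-20). Epha2, the EphA receptor of many epithelia, averaged 159 ± 10.4 CPM on day 6 and 128 ± 5.07 CPM on day 12, against 83.4 ± 6.39 CPM in control (edgeR adjusted p = 6.87e-14 and 1.9e-09). By TPM, Epha2 was the highest EphA receptor, with 54.5 ± 3.62 TPM on day 12 beside 18.6 ± 0.725 for Epha4. Epha1 fell on each day at low levels, with 0.747 ± 0.292 CPM on day 12, against 3.23 ± 1.18 CPM in control (edgeR adjusted p = 1.96e-05), and the tested gene Zyx overlaps it on the other strand, so its counts are uncertain.

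Ephb2, the receptor whose gradient orders cells in the intestinal crypt (ENSMUSG00000028664, chr4:136647539-136835988), was 22.8, 30.2 and 26.4 CPM in control, 15.1, 19.2 and 14.2 CPM on day 2, 6.06, 5.53 and 8.67 CPM on day 6 and 4.32, 3.14 and 6.47 CPM on day 12. All treated libraries lay below control, and days 6 and 12 overlapped. Ephb2 fell, with log2 differences from control of -0.75 ± 0.17 on day 2, -1.98 ± 0.18 on day 6 and -2.49 ± 0.19 on day 12 (edgeR adjusted p = 0.00134, 8.18e-10 and 2.6e-11). Ephb3 and Ephb4, the more abundant EphB receptors, changed by less than 2-fold: Ephb4 averaged 123 ± 1.54 CPM on day 12, against 109.6 ± 10.3 CPM in control (edgeR adjusted p = 0.0248), and Ephb3 61.95 ± 3.03 CPM, against 49.4 ± 4.12 CPM (edgeR adjusted p = 0.000463). Neither call is firm: Ephb4 did not pass without control A (adjusted p = 0.158), control C (adjusted p = 0.086), day 12 A (adjusted p = 0.0649) or day 12 C (adjusted p = 0.0576), and the limma fit of log2(TPM + 1) did not call Ephb3 (adjusted p = 0.323). The tested gene Zan overlaps Ephb4 on the other strand, so its counts are uncertain too.

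**Figure D4:**
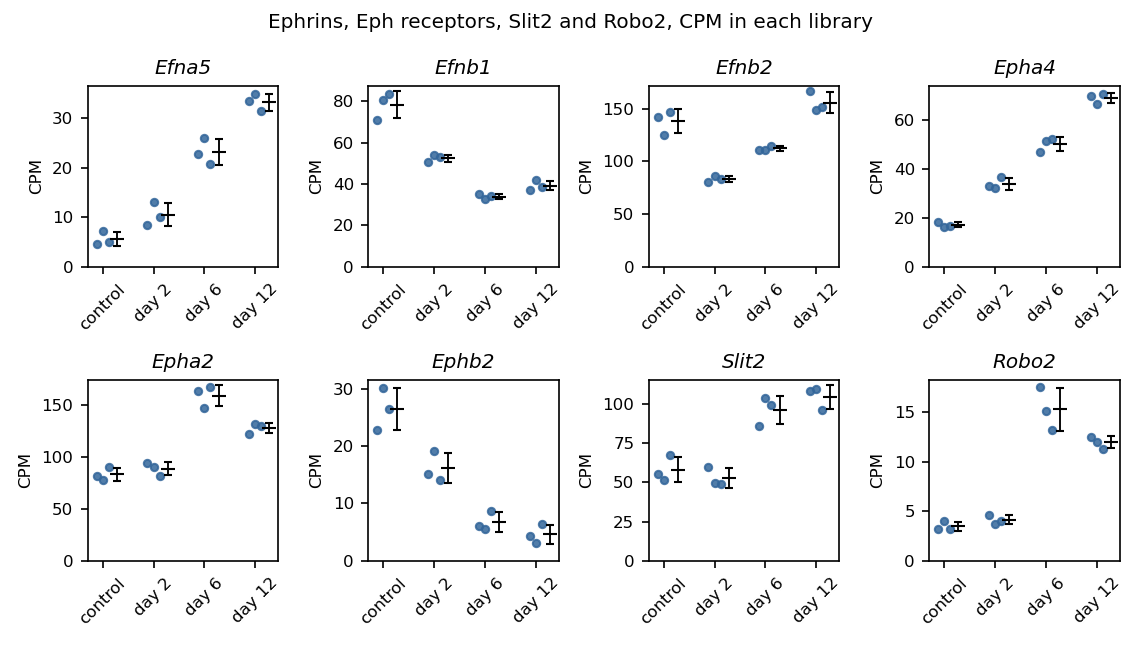
CPM (y axis, from 0) of 8 ephrin, Eph, Slit and Robo genes in each library (points) by group (x axis), with the mean and SD of 3 libraries (bar and whiskers). Efna5 and Epha4 have their highest values on day 12, Ephb2 and Efnb1 lie below control on each day, and Slit2 and Robo2 are high from day 6.

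Slit and Robo genes came down to 1 tested ligand and 1 tested receptor. Robo2 (ENSMUSG00000052516, chr16:73891839-74411825) was 3.23, 4.01 and 3.24 CPM in control, 4.62, 3.74 and 4.01 CPM on day 2, 17.5, 15.1 and 13.2 CPM on day 6 and 12.5, 12.0 and 11.3 CPM on day 12. Day 2 overlapped control, and days 6 and 12 stood above both. Robo2 rose by 2.15 ± 0.17 on day 6 and 1.78 ± 0.18 on day 12 (edgeR adjusted p = 6.36e-13 and 1.16e-10), while the day 2 difference of 0.26 ± 0.21 did not pass (edgeR adjusted p = 0.446). Its ligand Slit2 averaged 52.8 ± 6.13 CPM on day 2, 96.2 ± 9.18 CPM on day 6 and 105 ± 7.48 CPM on day 12, against 58.2 ± 8.18 CPM in control. Slit2 rose by 0.71 ± 0.10 on day 6 and 0.84 ± 0.09 on day 12 (edgeR adjusted p = 1.22e-06 and 9.9e-08).

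Netrins changed by less than 2-fold. Ntn1, the classical midline attractant, fell on each day and averaged 124 ± 3.30 CPM on day 2, 119 ± 2.65 CPM on day 6 and 118 ± 7.53 CPM on day 12, against 187 ± 6.19 CPM in control (edgeR adjusted p = 9.18e-10, 1.22e-11 and 7.39e-12). Ntn4, a netrin of basement membranes that binds laminin, averaged 151 ± 7.80 CPM on day 2, 121 ± 8.39 CPM on day 6 and 149.8 ± 6.34 CPM on day 12, against 116 ± 7.13 CPM in control. Ntn4 passed on days 2 and 12 (edgeR adjusted p = 1.68e-05 and 9.96e-06) and not on day 6 (edgeR adjusted p = 0.494).

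Between day 6 and day 2, 22 members were higher and 11 lower, beside 22.6% and 22.3% of all tested genes. By at least 2-fold, 5 were higher and 6 lower on day 6 than on day 2, beside 4.31% and 3.26%. Between day 12 and day 2, 20 were higher and 11 lower, beside 22.3% and 21.6%. Between day 12 and day 6, 11 were higher and 11 lower, beside 11% of all genes called higher and 11% called lower. With limma on log2(TPM + 1), 1 member was higher on day 12 than on day 6. By edgeR, Epha4, Efna5 and Plxna2 were among the members higher on day 12 than on day 6, and did not pass with limma (adjusted p = 0.26, 0.0924 and 0.0906), while Sema3e, Sema4d and Sema5a were among those lower. Sema3d and Sema6a were also higher by edgeR (log2 0.24 and 0.37, adjusted p = 0.0356 and 0.0194), but not without day 6 A (adjusted p = 0.163 and 0.0943), day 12 A (adjusted p = 0.109 and 0.0999) or day 12 C (adjusted p = 0.0617 and 0.0598). Sema3d did not pass without day 6 C or day 12 B either (adjusted p = 0.222 and 0.0937), nor with DESeq2 (adjusted p = 0.119), nor did Sema6a without day 6 B (adjusted p = 0.064).

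The 16 members below the filter were Robo1, Robo3, Robo4, Slit1, Slit3, Sema6d, Plxna4, Plxnc1, Epha3, Epha5, Epha6, Epha8, Epha10, Ephb1, Ephb6 and Ntn5. Of them, 6 (Epha3, Epha5, Epha6, Ephb1, Ephb6 and Robo4) were at 0 in all 12 libraries. Slit1 had 2 to 13 counts a library, and the rest had 0 to 6.

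Partners of these families outside the set were counted from lists of general knowledge. Their counts stand beside 10.3% of all tested genes called higher and 10.9% called lower than control on day 2, 26.7% and 27.6% on day 6, and 26.1% and 26.6% on day 12, and a count near those shares says nothing of its list. Of 10 tested netrin, Slit and RGM partners, 2 rose and 2 fell on day 2, and 7 rose and 2 fell on days 6 and 12, with a median log2 fold change of 0.44 on day 6 and 0.32 on day 12. Sdc1, a heparan sulphate proteoglycan, averaged 586 ± 14.1 CPM on day 12, against 107 ± 5.55 CPM in control (edgeR adjusted p = 2.22e-27). Unc5b, a netrin receptor, averaged 159 ± 18.1 CPM on day 12, against 51.7 ± 0.930 CPM in control (edgeR adjusted p = 6.28e-20). Flrt1, a membrane ligand of UNC5 receptors, averaged 35.0 ± 4.08 CPM on day 12, against 74.7 ± 5.92 CPM in control (edgeR adjusted p = 1.5e-13).

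Of 29 semaphorin and plexin co-receptors and intracellular partners, 5 rose and 4 fell on day 2, 12 rose and 8 fell on day 6, and 11 rose and 10 fell on day 12, with the falls on day 6 at the 27.6% of all tested genes. L1cam, a cell adhesion molecule and co-receptor for Sema3a, fell to 16.1 ± 1.12 CPM on day 12, against 211 ± 15.0 CPM in control (edgeR adjusted p = 2.3e-28). Mical2, an enzyme that oxidises actin, rose to 170 ± 8.40 CPM on day 12, against 55.3 ± 1.32 CPM in control (edgeR adjusted p = 1.6e-20). Met, the HGF receptor that shares the sema domain, rose on day 2 by 0.54 and fell by 0.87 on day 12 on the log2 scale (edgeR adjusted p = 8.7e-09 and 2.9e-14). All 4 tested genes with related domains (Met, Dcbld2, Plxdc1 and Dcbld1) were lower than control on days 6 and 12, beside 27.6% and 26.6% of all tested genes.

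Of 26 ephrin and Eph signalling partners, 5 rose and 2 fell on day 2, 10 rose and 8 fell on day 6, and 9 rose and 9 fell on day 12, with the falls on days 2 and 6 close to the 10.9% and 27.6% of all tested genes. Chn2, a Rac GTPase-activating protein, averaged 9.76 ± 1.73 CPM on day 12, against 66.1 ± 4.21 CPM in control (edgeR adjusted p = 4.2e-21). Of 17 Slit-Robo partners, 6 rose and 1 fell on day 2, 11 rose and 3 fell on day 6, and 9 rose and 3 fell on day 12. Srgap1, a Slit-Robo GTPase-activating protein, averaged 87.0 ± 2.20 CPM on day 12, against 36.9 ± 2.49 CPM in control (edgeR adjusted p = 3.4e-16). Of 26 cytoskeleton effectors, 4 rose on day 2, 6 rose and 7 fell on day 6, and 9 rose and 7 fell on day 12, with the day 6 counts close to the 26.7% and 27.6% of all tested genes.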

How the data were processed

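The 12 libraries of polyA RNA from PT-22 cells were put in 4 groups of 3 by their labels. Reads were trimmed and checked with cutadapt 2.3 and FastQC 0.11.8, and STAR 2.7.8a and RSEM 1.3.3 were run on GRCm38, per the submitters' processing notes. The annotation release, strand use and filters are not given in the sources used here. The authors deposited expected counts as whole numbers, not normalized, and 34 to 60 genes a library had a count of 0 beside a TPM above 0, as rounding gives. A second deposited table holds the authors' TPM.

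The test was edgeR 4.0.16 (R 4.3.3) on the counts. Genes passing filterByExpr by group (13513) were scaled with TMM, and 1 robust quasi-likelihood model of group was fitted across the 12 libraries, with 8 residual degrees of freedom. Two-sided p-values were adjusted with the Benjamini-Hochberg method over all 13513 genes and read against 0.05. SE is the size of the log2 fold change over the root of F, which understates the uncertainty where a group has few counts. The script was tested on simulated data.

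Library totals of 4326667 to 11654959 counts limit the precision of low genes, and no 2 libraries of a group agreed within sampling noise. The members, lists and alternatives were chosen with earlier results of these data known. Values in every library are given for the 17 members past the threshold against control with a change of at least 2-fold and a mean of at least 5 CPM in a group. Other members are given by group means, ranges and counts, and up to 6 partners per related list, by smallest F-test p, may be named. Alternatives were RLE and upper-quartile scaling, no filter beyond 1 count, a replicate block, fits of 2 groups only, DESeq2 1.42.0, limma 3.58.1 on log2(TPM + pseudocount) and leaving out each library. Gene positions came from GENCODE M21 and promoter windows from RefSeq, both on GRCm38.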

Additional observations from a re-analysis of the deposited data

Results flagged for a closer look

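Members past the threshold in opposite directions against control on 2 days, and past it between those days too, were singled out. Only 2 genes met this. Efnb2 averaged 82.9 ± 2.92 CPM on day 2, 112 ± 2.26 CPM on day 6 and 156 ± 10.03 CPM on day 12, against 138 ± 11.3 CPM in control (SD, n = 3 each). By edgeR it was lower than control on days 2 and 6 and higher on day 12, but the day 12 call did not hold without control B (adjusted p = 0.181), without day 12 A (adjusted p = 0.171) or with limma on log2(TPM + 1) (adjusted p = 0.0785), and limma did not call the day 6 fall (adjusted p = 0.246). Opposite calls against the same control and the difference between the days itself chose these 2 genes, so that difference is no independent test. For Efnb2, day 12 minus day 2 was 0.91 on the log2 scale (edgeR adjusted p = 1.24e-13), and day 12 minus day 6 was 0.47 (edgeR adjusted p = 7.58e-07). A tested transcript, E230020D15Rik, overlaps Efnb2 on the same strand.

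Sema4c, a membrane semaphorin that binds plexin B2, averaged 31.1 ± 1.52 CPM on day 2, 54.5 ± 0.570 CPM on day 6 and 57.0 ± 4.54 CPM on day 12, against 37.3 ± 2.87 CPM in control. Day 6 minus day 2 was 0.82 on the log2 scale (edgeR adjusted p = 8.71e-10), and day 12 minus day 2 was 0.89 (edgeR adjusted p = 1.04e-10). The fall on day 2 (log2 -0.28, edgeR adjusted p = 0.0228) did not pass with DESeq2 (adjusted p = 0.0565), with the libraries of those 2 groups alone (adjusted p = 0.0523), without control C (adjusted p = 0.166), without day 2 A (adjusted p = 0.0915) or without day 2 C (adjusted p = 0.0648). A tested transcript on the other strand overlaps Sema4c. Groups of 3 libraries are too small for a test of single outlying libraries.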

How the results depend on the processing

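Of the 85 differences of the 17 named members, no called direction turned under any of the 20 settings, and 43 of the values compared no longer passed, among them differences of Sema3d, Sema3a, Sema6a, Plxna2, Epha4 and Efna5 between day 12 and day 6, of Nrp1 on days 6 and 12 and of Ephb2 on day 2. With limma on log2(TPM + 1) and on log2(TPM + 0.1), which use the TPM table in place of counts, 9 and 9 members were higher at day 2 than in control in place of 15, 6 and 6 were lower at day 6 than at day 2 in place of 11, and 1 and 1 were higher at day 12 than at day 6 in place of 11. All genes called came to 1744 and 1725 at day 2 against control in place of 2860, and to 1379 and 1300 at day 12 against day 6 in place of 2971. The cause was not tested. TPM moved the median gene by 0.12 and 0.13 for day 6 against day 2 and, with the smaller pseudocount, by 0.10 for day 6 against control. Leaving out 1 library gave 11 to 15 members higher and 10 to 13 lower at day 2 against control, and 7 to 11 higher at day 12 against day 6, with 7 without day 12 C. Library letters did not pair the libraries: same-letter correlations across groups were -0.149 to 0.111, with 1 of 18 above 0.1, and 3 of 12 libraries matched best with their own letter. With the letter as a replicate block, 15 members were higher and 13 lower at day 2 against control and 23 higher at day 6 against day 2, adding Plxnb1 and Plxna3. Depth limits members near 1 CPM, such as Sema5b after day 2.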

Other observations

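The deposited TPM also divide by transcript length, and the ratio of TPM to CPM was compared between groups, against the median gene. This ratio for Sema3d was lower than in control by similar amounts on all days, with log2 shifts of -0.39 at day 2, -0.42 at day 6 and -0.40 at day 12. On the TPM scale Sema3d averaged 16.9 ± 0.665 at day 12, against 0.337 ± 0.0902 in control, where it had few counts. Sema5b shifted by 0.54 at day 2, by -0.15 at day 6 and by 0.56 at day 12, where it had 4 counts over the 3 libraries. Efna3 shifted by -0.40 at day 2, -0.56 at day 6 and -0.36 at day 12, at 2.95 to 4.21 CPM. Efna5 shifted by 0.41 at day 2, Epha1 by 0.47 at day 12 at 0.747 CPM, and Plxna3 by 0.32 at day 6. Among 10939 genes with a mean of at least 5 CPM, 3.49% at day 2, 3.60% at day 6 and 3.15% at day 12 shifted by more than 0.3 in either direction. These values are descriptions with no test.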
